A study of Homo sapiens with 4 samples.

Results

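Cancer-testis antigens and germline genes were followed as a set of 35 human genes, taken as the entries of the deposited count table whose gene name was on the set's list, out of 56809 gene entries in all. The set holds 17 genes of chromosome X and 18 autosomal genes, and every member had at least 1 count in some library. Poly(A) RNA had been sequenced from NCI-H929, an established human multiple myeloma line, in 2 BCL7A knockout (KO) libraries and 2 control libraries. Cells of both groups expressed Cas9, the nuclease that cuts DNA at a guide RNA's target, were selected with puromycin for 3 days and were given doxycycline at 0.5 ug/ml for 24 h before RNA isolation. The KO cells carried a doxycycline-inducible BCL7A KO construct, BCL7A being part of the BAF (SWI/SNF) remodellers of chromatin. The protocol gives the controls a control construct, whereas their titles and genotype label say wild type, so, if they were untransduced, an effect of the construct or its delivery cannot be told apart from that of the KO. The labels mention no cloning of the cells, and no label says whether the replicate libraries were grown as separate cultures, so the p-values reflect only how far these libraries spread.

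Cancer-testis antigens are proteins made mainly in male germ cells and, when their genes are active elsewhere, in tumours, where peptides from them can be seen by T cells. Their genes are normally kept silent in somatic cells, largely by DNA methylation of their promoters, and many of the X-linked ones lie in recently duplicated families. The meiotic and germ cell RNA genes of the set build the chromosome axis and synapsis of meiosis, or make and use piRNAs, the small RNAs that guide PIWI proteins to silence transposons. Multiple myeloma is among the tumours in which MAGE family antigens are often found.

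Libraries summed to 38671744 and 40799624 counts in the KO group and to 17567202 and 20153596 counts in the control group, so depth differed along with the group. BCL7A mRNA was at 1.31 and 1.19 CPM in KO libraries, against 42.9 and 45.7 CPM in the controls (log2 fold change -5.15 ± 0.11 SE, adjusted p = 3.51e-25). Levels are CPM, the usual measure of a share of the library, with library sizes scaled by TMM factors. The tests were edgeR's quasi-likelihood test over 17885 genes with Benjamini-Hochberg adjustment and a threshold of 0.05. Change was broad: 76.2% of all tested genes were called, 36.4% as higher and 39.8% as lower in the KO group, and the groups did not overlap for 87.4%. A call by itself therefore sets a member apart from few other genes. All 9 plasma cell markers examined were above 1 CPM in both groups, summing to 11965 and 11953 CPM in KO libraries and to 6697 and 6757 CPM in the controls. The markers of spermatids PRM1, PRM2, TNP1, TNP2 and SPACA1 had 0 counts in all 4 libraries. The list of 9 such markers summed to 0.968 and 1.16 CPM in KO libraries and to 2.12 and 1.26 CPM in the controls. TSSK6, also on that list, made most of the control sum, at 1.91 and 1.17 CPM. It was lower in the KO libraries, at 0.456 and 0.731 CPM (adjusted p = 0.00241 by edgeR). ACRV1 had 15 and 12 counts in the KO libraries and 4 and 0 in the control libraries.

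A gene was called on in a group where both libraries reached 1 CPM. By this rule 15 of the 35 members were on in the KO group and 19 in the control group, where 23% and 25% of all gene entries were on in the KO and the control group. The 12 members on in both groups were MAGEA1, MAGEA3, MAGEA4, MAGEA6, MAGEA12, MAGEB2, MAGEC1, SSX1, CTAG1B, CTAG2, PRAME and STAG3. SSX4, SMC1B and TEX15 were on in the KO group only, that is 3 of the 15 on there, against 3.73% of all genes on in the KO group. MAGEA10, MAGEC2, SSX2, PAGE1, PRSS21, PIWIL2 and LIN28B were on in the control group only, that is 7 of the 19 on there, against 11.7% of all genes on in the control group. SSX2, PRSS21 and LIN28B had 0 counts in both KO libraries, 3 of 19 against 1.5% of all genes on in the control group. No member had 0 counts in both control libraries, although those were the shallower ones. This was not particular to the members: of all 17885 tested genes, 458 had 0 counts in both KO libraries and 11 in both control libraries. In bulk RNA, fewer cells that make a transcript cannot be told apart from less of it in each cell.

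**Figure D1:**
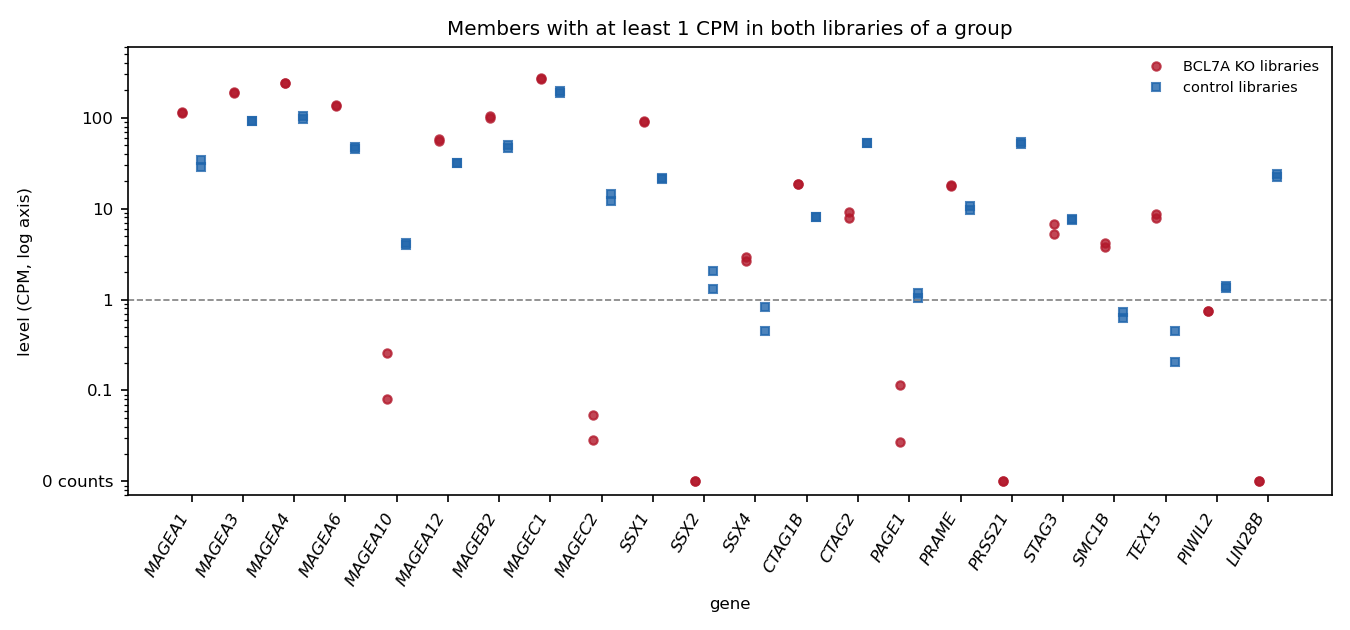
Level (CPM, log axis) of each member that was on in at least 1 group, with genes along the horizontal axis, 1 circle per KO library on the left and 1 square per control library on the right of each gene, libraries at 0 counts at the bottom and a dashed line at 1 CPM. PRSS21 and LIN28B stood at 0 in both KO libraries and above 20 CPM in both control libraries, while TEX15 stood above the line in the KO libraries and below it in the control libraries.

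Together the 35 members summed to 1268 and 1274 CPM in KO libraries, against 746 and 744 CPM in the controls. The X-linked members made most of this, with 1229 and 1235 CPM in KO libraries and 650 and 643 CPM in the controls. Of the 15 X-linked members tested, 10 were higher and 5 lower, so the rise of their sum does not hold for each of them. The sum of the autosomal members moved the other way, with 38.3 and 38.5 CPM in KO libraries and 96.1 and 101 CPM in the controls. This fall came from PRSS21 and LIN28B, which had 0 counts in both KO libraries. In the controls PRSS21 was at 51.8 and 54.5 CPM and LIN28B at 22.04 and 24.15 CPM, most of the autosomal sum there. Of the 10 autosomal members tested, 3 were higher, 4 lower and 3 not past the threshold, so the sum does not describe them as a group. Of the 25 members that passed the filter on low counts, 13 were higher, 9 lower and 3 not past the threshold, with a median log2 fold change of 0.51 beside -0.06 for all tested genes. Part of these 25 passed the filter through only 1 group, so this count and median describe the set and support nothing.

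The MAGE-A genes, clustered on distal Xq, encode proteins with a MAGE homology domain that bind RING-type ubiquitin ligases. In this family 5 of the 6 members were higher in the KO libraries by 1.77- to 3.67-fold and MAGEA10 was 24.1-fold lower. MAGEA1, the antigen with which human tumour antigens recognised by T cells were first defined (chromosome X, 153179285 to 153183880, plus strand), was at 114 and 117 CPM in KO libraries, against 28.7 and 33.9 CPM in the controls. Its groups were far apart relative to the spread within each (log2 fold change 1.87 ± 0.05 SE, adjusted p = 1.13e-19). MAGEA4, a target of engineered T cell receptors (X, 151912509 to 151925170, plus strand), was at 242 and 240 CPM in KO libraries, against 103 and 97.3 CPM in the controls (log2 fold change 1.27 ± 0.03 SE, adjusted p = 4.68e-23).

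MAGEA3 and MAGEA6, which act as partners of the ubiquitin ligase TRIM28, are near copies. MAGEA3 (X, 152698752 to 152702347, plus strand) had 190 and 189 CPM in KO libraries, against 92.3 and 92.9 CPM in the controls (log2 fold change 1.03 ± 0.03 SE, adjusted p = 4.63e-21). MAGEA6 (X, 152766136 to 152769747, minus strand) had 136 and 137 CPM in KO libraries, against 44.8 and 47.5 CPM in the controls (log2 fold change 1.56 ± 0.04 SE, adjusted p = 3.84e-23). Neither gene's groups overlapped, but 71.6% of the 31-base words of MAGEA3 transcripts and 69.7% of those of MAGEA6 transcripts also occur in transcripts of other genes, so the split of reads between them is uncertain. Their summed level does not depend on that split and was 326 and 325 CPM in KO libraries, against 137 and 140 CPM in the controls (log2 fold change 1.23 ± 0.03 SE, adjusted p = 3.23e-24). MAGEA12 (X, 152733779 to 152737669, plus strand) had 57.7 and 55.1 CPM in KO libraries, against 31.9 and 31.8 CPM in the controls (log2 fold change 0.82 ± 0.05 SE, adjusted p = 4.40e-14), and 32.1% of its words are shared with other genes.

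The promoter windows of MAGEA3 and MAGEA6, the 250 bases before and 50 bases after the RefSeq start, were identical at 300 of 300 bases, which is why 1 sequence stands for both. MAGEA12's window matched that of MAGEA3 at 234 of 339 columns of their alignment, gaps included (69.0%). The MAGEA3 window (GRCh38.p14, chrX:152698544-152698843, plus strand) is given 5′ to 3′, with an ETS-type core (CCGGAA or CCGGAT, or TTCCGG or ATCCGG on the other strand) in capitals.
MAGEA3: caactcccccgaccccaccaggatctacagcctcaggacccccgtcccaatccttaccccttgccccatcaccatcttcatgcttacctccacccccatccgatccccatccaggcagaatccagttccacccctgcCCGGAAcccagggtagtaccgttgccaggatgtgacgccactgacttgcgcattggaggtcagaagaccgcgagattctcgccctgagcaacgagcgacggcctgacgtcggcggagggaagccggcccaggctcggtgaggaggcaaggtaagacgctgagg

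MAGEA10 (X, 152133310 to 152138578, minus strand) went the other way. It had 9 and 3 counts in the KO libraries (0.256 and 0.0812 CPM), against 77 and 94 counts in the control libraries (3.98 and 4.24 CPM), for a log2 fold change of -4.59 (SE 0.37, adjusted p = 5.17e-12). With so few KO counts the size is loose: the log2 fold change was -5.57 without KO replicate 1 and -3.97 without KO replicate 2. MAGEA10 shares 20.9% of its words with other genes, most of them with the readthrough gene MAGEA10-MAGEA5, which had 0 counts in every library. The nearest expressed genes on its sides, GABRE and GABRA3, both GABA-A receptor subunit genes, were higher in the KO libraries, at log2 fold changes of 1.24 and 1.30.

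The MAGE-B and MAGE-C members also split. MAGEB2 (X, 30215560 to 30220089, plus strand), on the short arm, had 98.6 and 104 CPM in KO libraries, against 46.5 and 50.5 CPM in the controls (log2 fold change 1.06 ± 0.05 SE, adjusted p = 7.64e-18). Its neighbour MAGEB1 was 2.30-fold higher, at 52.9 and 51.8 CPM in KO libraries, against 22.9 and 22.7 CPM in the controls. MAGEC1, also known as CT7 and an antigen often found in myeloma (X, 141903894 to 141909388, plus strand), had 270 and 274 CPM in KO libraries, against 197 and 186 CPM in the controls (log2 fold change 0.51 ± 0.03 SE, adjusted p = 1.28e-14). The groups did not overlap, but the fold, 1.42, was the smallest of the X-linked members that were higher. MAGEC2, another TRIM28 partner (X, 142202345 to 142205290, minus strand), had 1 and 2 counts in the KO libraries, against 280 and 268 counts in the control libraries (0.0285 and 0.0541 CPM against 14.5 and 12.1 CPM). The ratio of control to KO was 317, with a 95% counting interval of 108 to 1542, and the adjusted p was 9.93e-20. MAGEC1 and MAGEC2 were each other's nearest expressed neighbours, so neighbouring genes of 1 family stood on opposite sides of the comparison.

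The promoter windows of MAGEC1 and MAGEC2 are set side by side because these neighbours moved apart. They matched at 60.1% of 351 alignment columns, gaps included, both carried ETS-type cores, in capitals, and held 14 CpG sites in MAGEC1 and 10 in MAGEC2. The MAGEC1 window lies at chrX:141903644-141903943 on the plus strand and the MAGEC2 window at chrX:142205241-142205540 on the minus strand, both in GRCh38.p14 from RefSeq.
MAGEC1: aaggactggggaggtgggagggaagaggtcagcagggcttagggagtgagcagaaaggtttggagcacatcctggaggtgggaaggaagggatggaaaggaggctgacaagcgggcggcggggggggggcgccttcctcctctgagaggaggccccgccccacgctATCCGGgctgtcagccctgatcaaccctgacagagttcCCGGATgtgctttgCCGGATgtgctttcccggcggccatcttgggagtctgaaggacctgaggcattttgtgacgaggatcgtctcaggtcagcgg
MAGEC2: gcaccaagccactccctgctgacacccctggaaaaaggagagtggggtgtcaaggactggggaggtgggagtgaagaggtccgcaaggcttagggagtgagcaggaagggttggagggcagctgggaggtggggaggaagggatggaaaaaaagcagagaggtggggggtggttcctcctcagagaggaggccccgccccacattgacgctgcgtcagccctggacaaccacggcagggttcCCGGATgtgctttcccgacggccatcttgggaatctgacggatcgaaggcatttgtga

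SSX proteins are nuclear repressors whose genes are known from synovial sarcoma, where they are fused to SS18, a gene for another BAF subunit. SSX1 (X, 48255317 to 48267444, plus strand) had 89.6 and 91.1 CPM in KO libraries, against 21.0 and 21.7 CPM in the controls (log2 fold change 2.08 ± 0.05 SE, adjusted p = 1.13e-23). This was a 4.23-fold difference between groups whose libraries differed by less than 2 CPM. SSX4 (X, 48383516 to 48393347, plus strand) was low in both groups, at 2.93 and 2.68 CPM in KO libraries and 0.828 and 0.451 CPM in the controls (log2 fold change 2.15 ± 0.30 SE, adjusted p = 3.24e-07). All of its 31-base words also occur in transcripts of its copy SSX4B, for which no value was used. SSX2 (X, 52696896 to 52707189, minus strand) had 0 counts in both KO libraries and 40 and 29 counts in the control libraries, at least 39.9-fold lower in the KO group against a floor of 3 counts over the group (adjusted p = 2.42e-09). All 31-base words of SSX2 also occur in transcripts of its copy SSX2B, so reads of SSX2 cannot be assigned with certainty. The sum of both was 0 in both KO libraries, against 13.9 and 12.6 CPM in the controls, at least 316-fold lower. These floors, and the counting intervals, cover counting error only.

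The SSX windows are shown because SSX1 and SSX4 were higher and SSX2 lower in the KO libraries. SSX2 and SSX4 matched at 84.7% of alignment columns, gaps included, whereas SSX1 matched SSX2 at 47.3% and SSX4 at 43.9%. Their positions are chrX:48255142-48255441 (SSX1, plus strand), chrX:48383289-48383588 (SSX4, plus strand) and chrX:52707129-52707428 (SSX2, minus strand) in GRCh38.p14. Capitals mark E2F-type cores, GCGGGA or its reverse complement TCCCGC.
SSX1: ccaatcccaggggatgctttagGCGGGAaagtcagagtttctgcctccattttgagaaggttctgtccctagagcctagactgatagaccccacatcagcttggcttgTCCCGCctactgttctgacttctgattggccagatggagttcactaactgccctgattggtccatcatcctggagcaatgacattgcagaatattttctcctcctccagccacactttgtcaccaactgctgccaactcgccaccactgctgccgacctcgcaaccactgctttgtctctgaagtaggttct
SSX4: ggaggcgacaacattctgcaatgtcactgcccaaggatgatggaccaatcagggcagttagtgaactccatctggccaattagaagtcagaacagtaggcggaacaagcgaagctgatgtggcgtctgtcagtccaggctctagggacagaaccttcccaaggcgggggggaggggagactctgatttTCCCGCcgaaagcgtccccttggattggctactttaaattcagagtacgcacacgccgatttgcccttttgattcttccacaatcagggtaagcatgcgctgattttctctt
SSX2: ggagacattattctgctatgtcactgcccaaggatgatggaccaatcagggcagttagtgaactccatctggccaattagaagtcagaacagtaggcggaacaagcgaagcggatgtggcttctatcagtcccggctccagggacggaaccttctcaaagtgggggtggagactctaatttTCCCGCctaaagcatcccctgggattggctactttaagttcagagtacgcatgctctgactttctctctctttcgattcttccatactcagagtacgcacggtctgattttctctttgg

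A window was available for 27 of the 35 members. The DDX4 window lay 28861 bases from the nearest start of a principal transcript and may not be its main promoter. All other windows lay within 76 bases of such a start. The ETS-type core was found in 12 of these 27 (44.4%) and in 22.1% of all 35116 windows, the E2F-type core in 12 (44.4%) and in 26.9% of all windows, and the E-box CACGTG in 6 (22.2%) and in 7.26% of all windows. Among members with a window, the ETS-type core stood in 7 of 10 that were higher, 2 of 6 that were lower and 3 of the other 11. The E2F-type core stood in 3 of 10, 3 of 6 and 6 of 11, and the E-box in 0 of 10, 3 of 6 and 3 of 11, in the same order. The members higher in the KO group include MAGE-A copies with like windows, so these are not independent counts. Median CpG content was 15 sites per window, beside 14 over all windows. The motif letters were chosen with the sequences in view, and a match describes the letters only.

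CTAG1B, which encodes NY-ESO-1, and CTAG2, which encodes the related LAGE-1, lie 32690 bases apart on Xq28 and moved in opposite directions. CTAG1B (X, 154617609 to 154619282, minus strand) had 18.8 CPM in each KO library, against 8.07 and 8.02 CPM in the controls (log2 fold change 1.22 ± 0.10 SE, adjusted p = 5.74e-12). It shares 92.1% of its words with other genes, mainly its copy CTAG1A, and the sum of the pair was 132 and 128 CPM in KO libraries, against 86.1 and 86.7 CPM in the controls (log2 fold change 0.59 ± 0.04 SE, adjusted p = 9.39e-15). The difference of the pair was smaller than the 2.33-fold of the CTAG1B entry. CTAG2 (X, 154651972 to 154653579, minus strand) had 9.23 and 7.85 CPM in KO libraries, against 53.1 and 53.4 CPM in the controls (log2 fold change -2.64 ± 0.07 SE, adjusted p = 1.29e-22). The ratio of CTAG2 to the summed CTAG1 pair was 0.0701 and 0.0612 in the KO libraries, against 0.617 and 0.616 in the control libraries. CTAG2 shares 50.9% of its words with other genes, so its own level is less certain than that of a gene without copies. Per kilobase of transcript, CTAG2 had the highest level of all members in the control group, at 53.6 CPM per kilobase, and was number 10 in the KO group, where MAGEA3 led with 106 CPM per kilobase.

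Of the smaller X-linked families, PAGE1 (X, 49687450 to 49695993, minus strand) had 4 and 1 counts in the KO libraries, against 20 and 26 counts in the controls (log2 fold change -3.91 ± 0.61 SE, adjusted p = 1.63e-06). Without KO replicate 1 the log2 fold change was -5.11, and without KO replicate 2 it was -3.21. GAGE1 had 3 and 12 counts in the KO libraries and 5 and 4 in the control libraries, and SPANXB1 had at most 1 count in any library. Neither was tested.

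**Figure D2:**
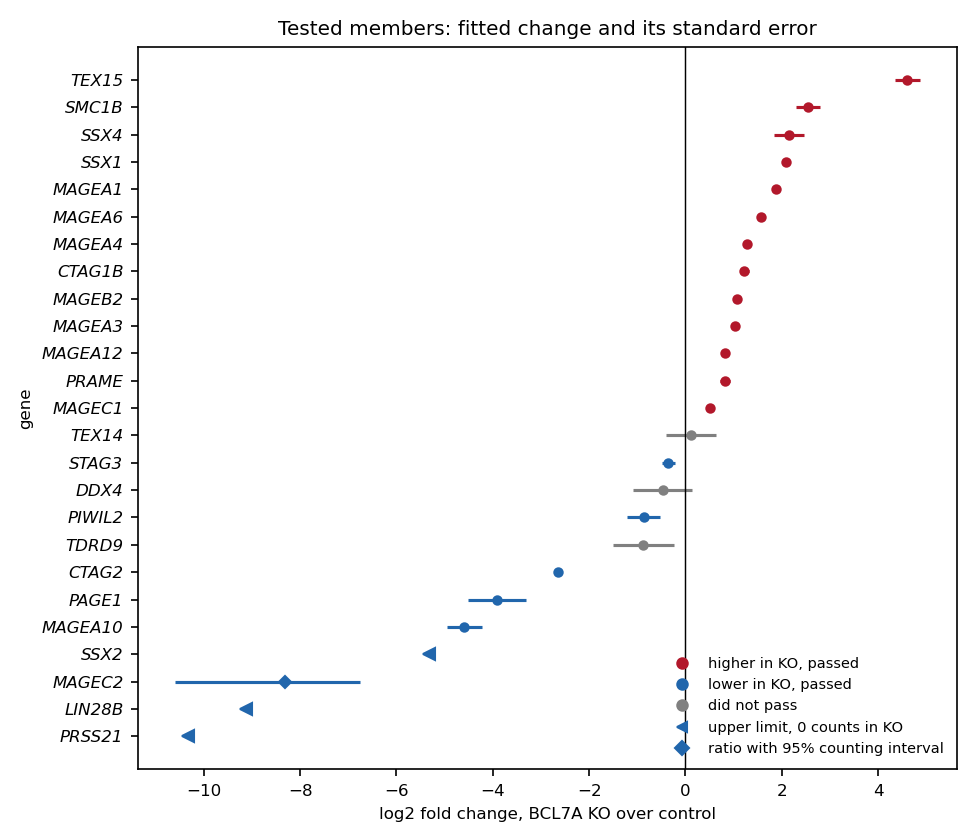
Log2 fold change, KO over control, of the 25 tested members in order of value, with bars for 1 SE, arrowheads at the upper limit for members with 0 KO counts, and a diamond with its 95% counting interval for MAGEC2. Members lie on both sides of 0, with TEX15 at the top and PRSS21 at the bottom, and only TEX14, DDX4 and TDRD9, in grey, did not pass the test.

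Among autosomal antigens, PRAME, a substrate receptor of a cullin ubiquitin ligase that represses retinoic acid receptor signalling (chromosome 22, 22547701 to 22559361, minus strand), had 18.4 and 17.6 CPM in KO libraries, against 9.57 and 10.8 CPM in the controls (log2 fold change 0.82 ± 0.10 SE, adjusted p = 1.40e-08). PRSS21, which encodes testisin, a membrane-anchored serine protease of sperm (chromosome 16, 2817180 to 2826304, plus strand), had 0 counts in both KO libraries and 1001 and 1210 counts in the control libraries, or 51.8 and 54.5 CPM. Its level was at least 1279-fold lower in the KO group (adjusted p = 1.63e-26), and by fitted log2 fold change, which for a gene at 0 depends on the prior count, it was number 3 from the bottom of the 17885 tested genes. Its neighbours did not share that loss in size: ELOB, a subunit of elongin, was at 70.1 and 68.8 CPM in KO libraries, against 43.8 and 54.7 CPM in the controls, and ZG16B, 3865 bases away, had 0.313 and 0.108 CPM in KO libraries, against 1.71 and 1.62 CPM in the controls. BRDT, the testis member of the BET bromodomain family, had a single count in 1 control library.

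Of the 5 members of the meiotic chromosome axis and cohesin, 3 were on in neither group. SMC1B, the meiotic form of the cohesin subunit SMC1 (chromosome 22, 45344063 to 45413619, minus strand), had 3.76 and 4.14 CPM in KO libraries, against 0.724 and 0.631 CPM in the controls (log2 fold change 2.54 ± 0.26 SE, adjusted p = 6.82e-10). Its neighbour RIBC2, 72 bases away, had 2.48 and 2.35 CPM in KO libraries, against 0.103 and 0.496 CPM in the controls, so both genes were low in the control and higher in the KO group. FAM118A, 2108 bases away on the other side, was well expressed in both groups, at 138 CPM in each KO library, against 96.3 and 85.5 CPM in the controls. STAG3, the meiotic form of the STAG cohesin subunit (chromosome 7, 100177563 to 100221488, plus strand), had 5.27 and 6.71 CPM in KO libraries, against 7.76 and 7.57 CPM in the controls (log2 fold change -0.35 ± 0.14 SE, adjusted p = 0.0294). This small difference was lost in 6 of 13 other settings and left an adjusted p of 0.389 without KO replicate 1. STAG3 overlaps PVRIG on the same strand, shares 16.9% of its words with it, and PVRIG had 1 and 2 counts in the KO libraries against 104 and 132 in the control libraries, so the STAG3 value is uncertain. SYCP1, the transverse filament of the synaptonemal complex, had at most 1 count in a library. SYCP2, of its lateral elements, had 11 and 5 counts in the KO libraries and 13 and 4 in the control libraries. SYCP3, their main component, had 0 and 3 counts in the KO libraries and 5 and 3 in the control libraries. Its ratio of control to KO was 4.63, with a counting interval of 1.11 to 27.1 that covers counting error only. SYCP1, SYCP2 and SYCP3 had too few counts to be tested.

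Of the germ cell factors, TEX15, required in mice for meiotic recombination and for piRNA-directed transposon silencing, was on in the KO group only. It had 307 and 291 counts in the KO libraries (8.74 and 7.88 CPM), against 4 and 10 counts in the control libraries (0.207 and 0.451 CPM), 24.4-fold higher (log2 fold change 4.61 ± 0.26 SE, adjusted p = 1.45e-15). Over the other settings the log2 fold change ran from 4.19 to 5.28, the highest being without control replicate 2. By log2 fold change it was number 18 from the top of the 17885 tested genes. Its nearest expressed neighbours differed little and in opposite directions, PPP2CB at 0.26 and WRN at -0.44 on the log2 scale. TEX14, which holds germ cell bridges open in mice, reached 0.569 and 0.595 CPM in KO libraries and 0.880 and 0.225 CPM in the controls, with no difference past the threshold (adjusted p = 0.845).

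The PIWI, tudor and germ cell helicase members stayed near or below 1 CPM. PIWIL2, a PIWI protein, had 0.740 and 0.758 CPM in KO libraries, against 1.35 and 1.40 CPM in the controls (log2 fold change -0.87 ± 0.35 SE, adjusted p = 0.0268). The call was lost in 6 of 13 other settings, with the largest adjusted p, 0.150, from DESeq2, so PIWIL2 lay close to both cut-offs. PIWIL1 had 0 counts in both KO libraries and 4 and 5 counts in the control libraries, and was not tested. Against the floor it was 5.21-fold lower, but this takes its few control counts as exact. DDX4, the germ cell RNA helicase also called VASA, and TDRD9, a helicase of the piRNA pathway in mice, were tested and not past the threshold (adjusted p = 0.483 and 0.208). DAZL, a germ cell RNA-binding protein, TDRD1, a tudor protein of the same pathway, and LIN28A had at most 3 counts in any library.

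LIN28B, an RNA-binding protein that blocks maturation of let-7 microRNAs and is known from fetal tissue and tumours (chromosome 6, 104936616 to 105083332, plus strand), had 0 counts in both KO libraries and 426 and 536 counts in the control libraries (22.04 and 24.15 CPM), at least 557-fold lower in the KO group (adjusted p = 4.11e-22), number 13 from the bottom of all tested genes on the same fitted scale. Of its neighbours, the ubiquitin ligase gene HACE1 was lower, at 6.09 and 7.23 CPM in KO libraries against 18.3 and 17.1 CPM in the controls, and BVES was not past the threshold, at 9.20 and 9.42 CPM in KO libraries against 10.3 and 10.6 CPM in the controls.

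In all, 13 members were on in neither group: GAGE1, SPANXB1, BRDT, SYCP1, SYCP2, SYCP3, TEX14, DDX4, DAZL, TDRD1, TDRD9, PIWIL1 and LIN28A. None of them had more than 22 counts in a library, and the highest levels were 0.595 CPM in KO libraries and 0.880 CPM in the controls. With 0 counts in both libraries, levels up to 0.0416 CPM in KO libraries and 0.0723 CPM in the controls could have gone undetected. These are the floors used for the bounds, and a lower level could still give a count, as for SYCP1 and SPANXB1 in the KO group.

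Neighbouring genes moved with some members and against others. The 22 members on in some group had 36 distinct non-member neighbours reported here, the nearest tested protein-coding gene on each side, and 18 of these were higher, 12 lower and 6 not past the threshold, with a median log2 fold change of 0.20. Among all tested protein-coding genes, 46.7% were higher and 34.1% lower on chromosome X, and 43.6% were higher and 36.9% lower on the autosomes. Counting each pairing of a member with a neighbour, the neighbour was called in the member's own direction in 18 of 39. With such shares called over all genes, these counts do not show that neighbours moved together. CSAG1, 44 bases from MAGEA12, was at 12.6 and 14.0 CPM in KO libraries, against 15.5 and 16.4 CPM in the controls, a log2 fold change of -0.26 beside 0.82 for MAGEA12.

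**Figure D3:**
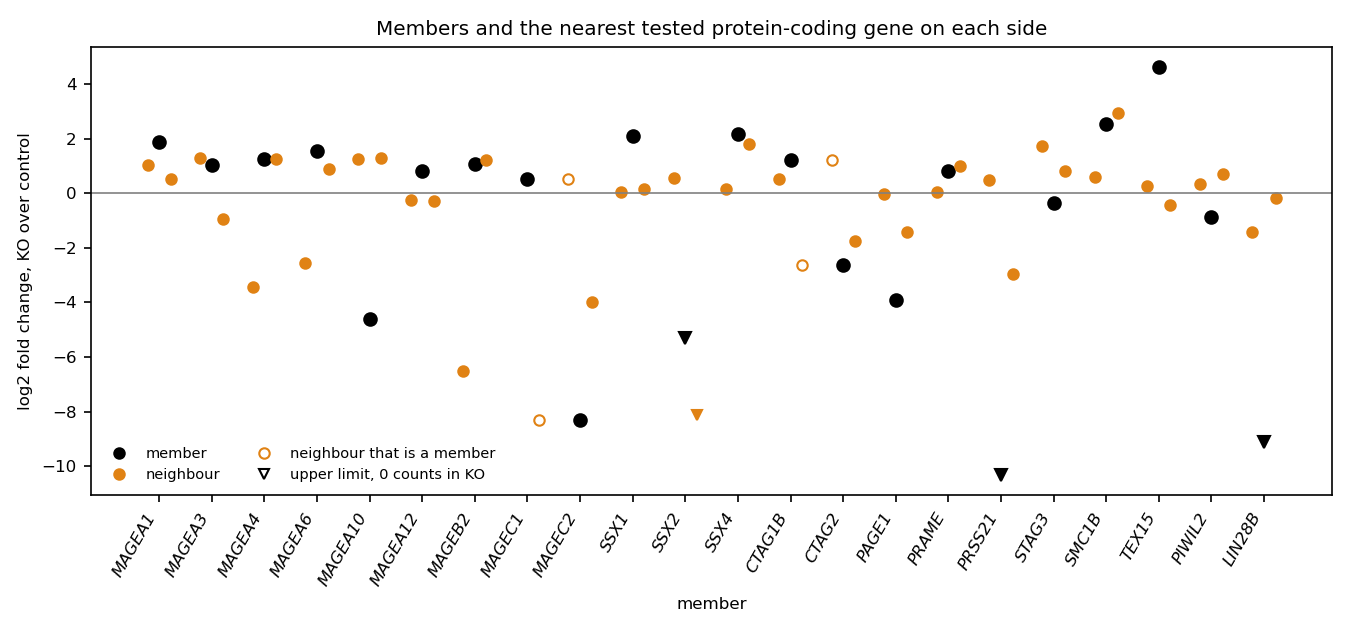
Log2 fold change, KO over control, of each of the 22 members (black) and of its nearest tested protein-coding gene on either side (orange, open where the neighbour is itself a member), with triangles for upper limits at 0 KO counts. MAGEA10 lies far below its neighbours and TEX15 far above its own, whereas SMC1B lies close to RIBC2.

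Across chromosome X as a whole, 507 protein-coding genes were tested, of which 46.7% were higher and 34.1% lower in the KO libraries, and leaving out the antigens gave 47% and 33.4% over 470 genes. On the autosomes 43.6% of 13361 genes were higher and 36.9% lower. The X split depends on the scaling: over all gene types on X, 245 were higher and 215 lower with TMM factors, and 208 higher and 254 lower with upper-quartile factors. No test of the difference between chromosomes was made.

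Other genes of the same families and pathways were taken from lists drawn up by family and role. The list of other MAGE-A, B and C genes also holds CSAG genes of the MAGEA cluster, which are not MAGE genes. Of its 8 genes tested, out of 20, 1 was higher, 5 lower and 2 not past the threshold. With upper-quartile factors 6 were lower. MAGEB1 was the only one higher, and CSAG1 and CSAG3 were among the lower. CSAG3 was at 0.940 and 1.38 CPM in KO libraries, against 7.76 and 6.08 CPM in the controls. Of 14 other X-linked antigens tested, out of 42, 5 were higher, 6 lower and 3 not past. PAGE5 was at 96.7 and 90.0 CPM in KO libraries, against 32.1 and 34.7 CPM in the controls, and PASD1, an antigen next to MAGEA4, at 1.42 and 1.597 CPM in KO libraries, against 15.5 and 17.5 CPM in the controls. Of 10 other meiosis genes tested, out of 30, 1 was higher (0 with upper-quartile factors), 7 lower and 2 not past, with a median log2 fold change of -1.40. MEI1 fell to 5.95 and 5.79 CPM in KO libraries, against 17.3 and 18.9 CPM in the controls, and REC8, the meiotic kleisin, to 8.14 and 7.58 CPM in KO libraries, against 16.5 and 15.1 CPM in the controls. Of 10 other germ cell RNA genes tested, out of 25, 4 were higher, 5 lower and 1 not past, with GTSF1, a piRNA factor, at 18.2 and 18.1 CPM in KO libraries, against 37.6 and 34.1 CPM in the controls.

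MAGE genes expressed in most tissues were tested in 6 cases out of 11, and 5 were higher (4 with upper-quartile factors) and 1 lower. The lower one, MAGEF1, averaged 17.0 CPM in KO libraries and 52.1 CPM in the controls. In the LIN28 and let-7 list 10 of 11 genes were tested, with 3 higher, 4 lower (5 with upper-quartile factors) and 3 not past. DICER1, the enzyme that cuts microRNA precursors, was at 153 and 151 CPM in KO libraries, against 293 and 285 CPM in the controls, whereas IGF2BP2, a let-7 target and mRNA-binding protein, was at 18.3 and 20.5 CPM in KO libraries, against 3.21 and 2.84 CPM in the controls. On a list of 20 genes drawn up as germline gene repressors, 9 were higher, 6 lower and 5 not past. With upper-quartile factors 8 were higher and 9 lower. The list also holds CTCFL, which is not a known repressor of these genes. CTCFL was counted as higher, at 4.64 and 5.22 CPM in KO libraries, against 3.93 and 3.51 CPM in the controls. The DNA methyltransferase DNMT3B was at 5.04 and 5.25 CPM in KO libraries, against 16.8 and 17.6 CPM in the controls, while the maintenance enzyme DNMT1 was at 241 and 239 CPM in KO libraries, against 161 and 149 CPM in the controls. Of 10 mitotic cohesin genes, 7 were higher and 2 lower (6 and 3 with upper-quartile factors), with STAG2 at 428 and 444 CPM in KO libraries, against 231 and 224 CPM in the controls.

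**Figure D4:**
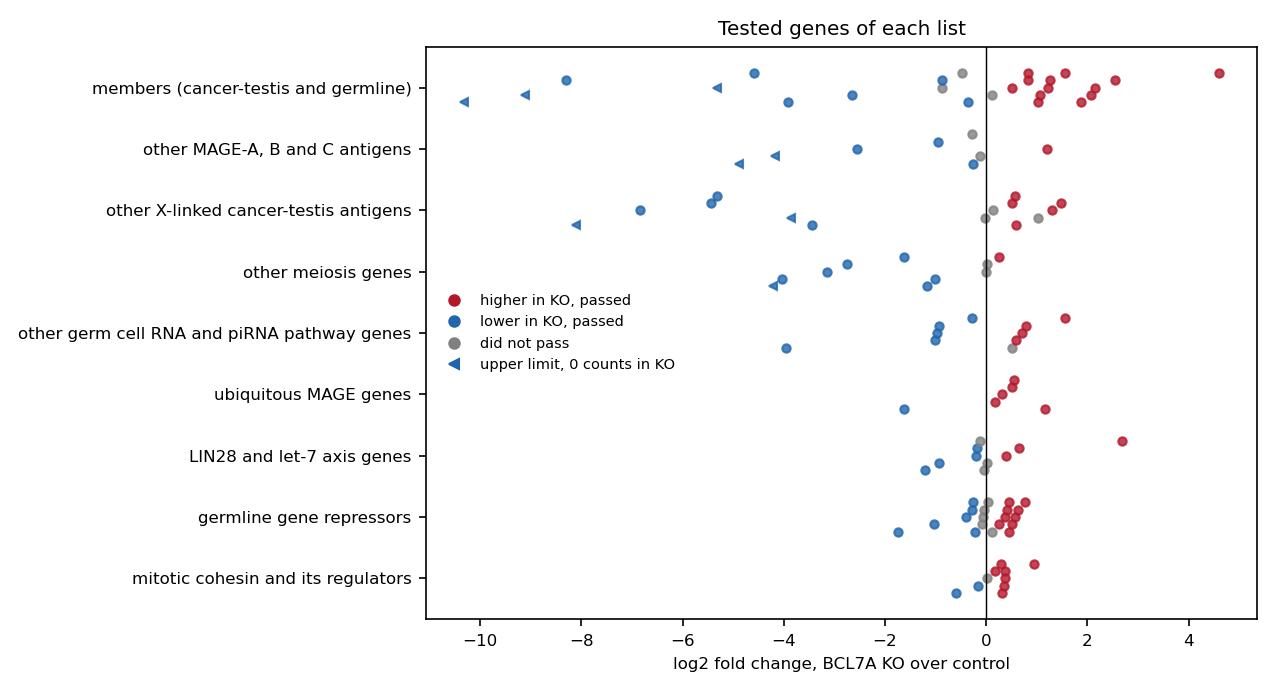
Log2 fold change, KO over control, of the tested genes of the members and of each related list, with 1 point per gene coloured by its call and arrowheads at the upper limit for genes with 0 KO counts. Every list spreads to both sides of 0, and other meiosis genes lie mainly below it.

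Markers of other cell types also moved with the group, all at low summed levels beside the plasma cell list. Epithelial markers summed to 12.5 and 13.2 CPM in KO libraries and to 66.5 and 71.2 CPM in the controls, T cell markers to 15.0 and 14.7 CPM in KO libraries and 28.8 and 29.6 CPM in the controls, and fibroblast markers to 0.456 and 0.352 CPM in KO libraries and 11.1 and 10.99 CPM in the controls. Sertoli and Leydig cell markers summed to 1.88 and 2.25 CPM in KO libraries and to 6.67 and 9.91 CPM in the controls, and pluripotency markers to 0.142 and 0.108 CPM in KO libraries and 2.64 and 2.93 CPM in the controls. EPCAM made most of the epithelial difference, with 0 counts in both KO libraries against 51.4 and 54.4 CPM in the controls. KRT8 was also lower, at 1.48 and 1.22 CPM in KO libraries against 8.80 and 10.3 CPM in the controls. KRT18 was higher, at 6.27 and 6.71 CPM in KO libraries against 2.69 and 1.17 CPM in the controls. CDH1 and CLDN4 were not past the threshold, and KRT19 had 0 counts in all 4 libraries. Of the T cell markers CD3D had 0 counts in all 4 libraries, but CD3E was at 14.0 and 13.7 CPM in KO libraries against 24.4 and 23.4 CPM in the controls, and CD8A at 0.0285 and 0.0541 CPM in KO libraries against 2.28 and 4.01 CPM in the controls. Of the Sertoli cell markers FSHR had 0 counts in all 4 libraries, but AMH was at 0.740 and 1.41 CPM in KO libraries against 4.97 and 6.94 CPM in the controls. The part of these markers in the members' levels was not tested.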

How the data were processed

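Estimated counts for each gene were deposited by the authors as 1 table. Salmon 0.12 and GRCh38 are named in the submitters' processing notes. All values were whole numbers. The kit is stranded per the labels' protocols, but which annotation and strand setting the counting used is not given in the sources used here, and overlapping genes and near copies are uncertain. All 56809 gene names matched GENCODE release 29, the source of coordinates, and 92 ERCC entries with at most 2 counts were left out.

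Counts were filtered (filterByExpr, 17885 genes), scaled with TMM factors of 0.909 and 0.906 in the KO libraries and 1.10 in both control libraries, and tested with edgeR 4.0.16 (glmQLFit with robust=TRUE, glmQLFTest) under R 4.3.3, with Benjamini-Hochberg adjustment. Log2 fold changes are KO over control, and SEs come from the F statistic. Groups had 2 libraries each, with a biological coefficient of variation of 2.32%. The chi-square of the replicates' counts was 1.79 per degree of freedom in the KO and 2.43 in the control group. This cannot tell separate cultures from a library sequenced again, since an uneven split of reads between near copies also raises it. 1 count was worth 0.0285 and 0.0271 CPM in the KO libraries and 0.0517 and 0.0451 CPM in the control libraries. Bounds use 3 counts over a group and take the other group's counts as they stand. Intervals are exact 95% Clopper-Pearson. Shared words are 31-mers of GENCODE transcripts.

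Named genes are all members, at most 4 genes by smallest p from each list, neighbours, markers and BCL7A. CTCFL was added because it is not a known repressor. Copies of members and genes that overlap them are also named, and NXF2, NXF2B and LUZP4 were picked outside this rule. The members and lists were chosen with earlier results of these data known. The fits were tested on simulated data. Alternatives were RLE and upper-quartile factors, other filters, DESeq2 1.42.0, limma-voom 3.58.1, a replicate block, each library left out, thinned KO counts, other cut-offs and, chosen after seeing the data, summed near copies. Promoter windows are from RefSeq (GRCh38.p14). A few genes of the lists and neighbours are not reported here.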

Additional observations from a re-analysis of the deposited data

How the results depend on the processing

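Counts of members higher in the KO group ranged from 12 to 13 and of members lower from 7 to 9 over the alternatives. Members on ranged from 13 to 17 in the KO group and from 15 to 20 in the control group, the extremes coming from on-thresholds of 5 and 0.5 CPM. Of 321 values of single members under the alternatives, 309 stayed on their side of the threshold and 12 lost the call, all of them STAG3 or PIWIL2. The sign changed in 4 of these values, all of TEX14 or DDX4, which passed the threshold in none. Among 1437 values of other genes of the lists and neighbours, 30 lost and 19 gained the call. The sign changed in 39 of them, of 18 genes not past the threshold as reported, and 1 of the 39 then passed it: SMC3, at -0.111 on the log2 scale under upper-quartile factors. That scaling moved the median of all genes by -0.13. Leaving out each library gave 13 members higher and 7 to 9 lower. The replicate numbers did not pair the libraries (correlation of deviations -0.00894 over 17885 genes), and a fit with the replicate number as a block called 13 members higher and 9 lower. For members with few or 0 KO counts (MAGEA10, MAGEC2, PAGE1, SSX2, PRSS21 and LIN28B), depth limits how closely the size of the difference is known.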

Other observations

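Reads of the X-linked copies NXF2 and NXF2B, which encode nuclear RNA export factors of the testis, were split unevenly between libraries. NXF2 had 81 and 10 counts in the KO libraries and 9 and 17 in the control libraries, while NXF2B had 0 and 75 counts in the KO libraries and 0 and 1 in the control libraries. The sum of the pair was even within the groups, at 2.31 and 2.30 CPM in KO libraries and 0.466 and 0.811 CPM in the controls (log2 fold change 1.82, adjusted p = 9.11e-06 by edgeR). MAGEA2 and MAGEA2B, summed in the same way, were lower in the KO libraries (log2 fold change -0.53, adjusted p = 6.06e-06). LUZP4, another X-linked antigen, had 0 and 2 counts in the KO libraries and 73 and 59 counts in the control libraries, a ratio of control to KO of 115 with a 95% counting interval of 31.1 to 956.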
